A study of Equus caballus with 32 samples.

Results

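Transcripts of 7 red cell genes were followed in whole blood from 32 mares of the Welsh Pony breed. The genes were HBB, AHSP, ALAS2, SELENBP1, SLC4A1, BPGM and EPB42, and every non-control probe that the array annotation gives one of these names was taken, which made 22 of 43987 probes (29 spots). Of the 9162 genes with a tested probe 5 are members. The mares were sampled 30 days after weaning, 16 after a weaning that the labels call brutal and 16 after one that they call progressive, and the labels do not describe either procedure further. Each mare gave 1 venous blood sample in tubes that stabilise RNA, and its RNA was hybridised to 1 single-colour Agilent array. The mares share breed, sex, tissue and time of sampling, and no age is given. The labels' protocols mention neither sorting nor globin depletion, so the signal of a gene sums over all blood cells, and more cells of a type and more RNA per cell cannot be told apart.

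A circulating red cell has no nucleus, and the RNA it carries is what remains from its time as an erythroblast and reticulocyte, the young red cell that still holds ribosomes and mitochondria. Haemoglobin is built from alpha-type and beta-type globin chains around haem, whose synthesis in erythroid cells starts with the enzyme ALAS2. Horses complete reticulocyte maturation largely in the bone marrow and release few reticulocytes into the blood, even in anaemia. The members cover several steps of this programme. HBB is the beta chain of haemoglobin, and AHSP is a chaperone of free alpha chains. SELENBP1 is a selenium-binding methanethiol oxidase that is abundant in red cells and also made in other tissues, BPGM makes the 2,3-bisphosphoglycerate that lowers the oxygen affinity of haemoglobin in many mammals, SLC4A1 is the band 3 anion exchanger, and EPB42 is the membrane protein 4.2 that binds band 3.

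The probes show what part of each transcript was read, and they are printed because 1 signal can stand for several overlapping probes. The 5 HBB probes at the 3′ end tile a window of 64 bases at chr7:61746178-61746241 (EquCab1 in the file headers, minus strand), the 5 AHSP probes one of 64 bases at chr13:5767257-5767320 (minus strand), and the only ALAS2 probe lies at chrUn:238973242-238973301 (minus strand). All 11 contain the polyadenylation signal AATAAA, as do 8.6% of the 43603 array probes of 60 bases on the listed strand and 11.9% on either strand. No other member probe of that length holds it on either strand. Stretches of 30 bases around it are given with the signal in capitals.
HBB, 3′ end: tggcttctgcctAATAAAcaacatgtattt
AHSP, 3′ end: accttgacactcAATAAAgaggactactgg
ALAS2, 3′ end: ggctctagctgacttgagtctgaaAATAAA
The sixth HBB probe starts at base 233 of its transcript (chr7:61747079-61747138, minus strand) and has an open reading frame over its whole length. It is shown with the probes of genes whose pattern was close to its own, the globins HBA2 and HBQ1 and LOC100054161, the unnamed gene next to HBB in the RefSeq gene order of the TB-T2T assembly. No capitals are used where no base is singled out.
HBB, coding: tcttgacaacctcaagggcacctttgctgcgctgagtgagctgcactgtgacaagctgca
LOC100054161: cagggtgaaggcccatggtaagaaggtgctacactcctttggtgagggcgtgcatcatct
HBA2: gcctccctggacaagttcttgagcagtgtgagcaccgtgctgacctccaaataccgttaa
HBQ1: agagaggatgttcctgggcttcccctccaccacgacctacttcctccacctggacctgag
The SELENBP1 and BPGM probes are shown because the 2 probes of each gene gave unlike results. Those of SELENBP1 start at bases 1306 (chrUn:80537217-80537276, minus strand) and 479 of different transcripts, the latter spanning chrUn:80539529-80540984 on the genome, and those of BPGM are a custom probe of 50 bases with no listed position and one at chrUn:58819191-58819250 (minus strand). All 4 have an open reading frame over their whole length.
SELENBP1, base 1306: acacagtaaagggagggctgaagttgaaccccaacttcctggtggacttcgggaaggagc
SELENBP1, base 479: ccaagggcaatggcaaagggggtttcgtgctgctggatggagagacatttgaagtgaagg
BPGM, custom: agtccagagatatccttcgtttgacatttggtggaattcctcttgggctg
BPGM, base 786: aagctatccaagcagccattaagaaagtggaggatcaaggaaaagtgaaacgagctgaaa
The longest run of bases that any member probe shared with a probe of another gene name, on either strand, was 15 bases, and for the probes of HBA2, HBQ1 and LOC100054161 it was at most 15. Probes were compared with other probes only and not with whole transcripts, so these runs do not show which transcripts a probe can bind.

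At the 75th percentile the arrays gave signals between 339.5 and 646 intensity units, and the share of spots well above background lay between 53.0 and 66.0%. No spot was saturated, and the brightest HBB spot reached 40.3% of the saturation value. The arrays lie on 4 slides of 8, each with 4 mares of either group. On every slide they form rows 1 and 2. The share of spots well above background was 59.8 to 66.0% in row 1 and 53.0 to 59.6% in row 2. The part of the row in the members' spread and correlations was not tested. The array progressive 16 stands apart with 851 of the 2483 spots that the extraction software marked as outliers, none of them a member's. Levels are log2 of the processed signal relative to the array's own 75th percentile, so a level of 1 means 2 times that percentile. Testing required a signal well above background in 8 or more of the 16 mares of either group, a condition met by 26368 probes, among them 16 member probes of 5 genes. Probes differ in how well they bind, so levels are compared between mares and never between genes.

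Band 3 and protein 4.2 transcripts were at the limit of the arrays. The 5 overlapping SLC4A1 probes (chr11:18059000-18059063, plus strand) stood well above background on 0, 0, 1, 1 and 3 of the 32 arrays, and the EPB42 probe on 0 of 32. For the 2 SLC4A1 probes present as 2 spots per array, the SD between spots was 0.45 and 0.32, and that between mares 0.52 and 0.68. These signals are bounds, neither gene was tested, and the 6 probes that failed account for all members left out. None of the SLC4A1 probes, whose starts are shifted by 1 base from one to the next, has an open reading frame over its length, whereas the EPB42 probe, which spans chr1:143008452-143010389 (plus strand), has one.
SLC4A1, first 30 bases of the probe at the 3′ end of the window: cttctgtaaaatgggtatattgataataat
EPB42: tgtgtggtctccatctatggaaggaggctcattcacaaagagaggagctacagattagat

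HBB differed 58.2-fold between the lowest and the highest mare. In the brutal group its level was lowest at 4.03 (brutal 1), had a median of 6.47 and was highest at 9.89 (brutal 12), and in the progressive group it ran from 4.05 (progressive 9) through a median of 5.99 to 9.45 (progressive 5). The groups overlapped over almost all of their range. The SD over the 32 mares was 1.63, and only 97 of the 26368 tested probes had a larger one, against a median SD of 0.31. For the HBB probe present as 2 spots per array, the SD between the spots was 0.06 and that between mares 1.60, 28.2 times as large. The values formed a continuum, with a largest gap of 0.69 between 6.43 and 7.12, 11.8% of the range. The 6 HBB probes rose and fell together with r of at least 0.993, the coding one included, and the coding probe spanned 107-fold.

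AHSP and ALAS2 were almost as variable. AHSP, the alpha chain chaperone, ran in the brutal group from -3.64 (brutal 1) through a median of -1.25 to 1.42 (brutal 12), and in the progressive group from -3.44 (progressive 16) through -2.25 to -0.46 (progressive 5). The 4 highest mares were all brutal. Its SD of 1.33 was exceeded by 150 tested probes, and its 5 overlapping probes correlated with each other at r between 0.902 and 0.996. ALAS2, the first enzyme of haem synthesis, ran in the brutal group from 0.21 (brutal 16) through 1.44 to 5.18 (brutal 12) and in the progressive group from 0.20 (progressive 15) through 0.84 to 3.88 (progressive 5), a 31.5-fold span over all mares. Its SD was 1.20, with 227 tested probes above it. The distribution was uneven, with a median of 0.93 over all mares close to the lowest value and a gap of 1.30 between brutal 12 and the next mare.

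The other 2 measured members varied less. SELENBP1 ran from -2.26 (brutal 12) through -1.57 to -0.51 (brutal 1) in the brutal group and from -2.82 (progressive 15) through -1.93 to -0.66 (progressive 14) in the progressive group. Its SD of 0.52 lay at the percentile 82.9 of all tested probes, and the mare with the highest level was the one with the lowest HBB and AHSP. BPGM spanned 2.03-fold. It ran from -1.33 (brutal 11) through -1.06 to -0.32 (brutal 12) in the brutal group and from -1.34 (progressive 12) through -0.98 to -0.56 (progressive 5) in the progressive group. Its SD of 0.25 was below that of most tested probes (percentile 31.9) and 2.07 times the SD between its repeat spots. Between the 2 SELENBP1 probes r was 0.819, and between the 2 BPGM probes 0.623.

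**Figure D1:**
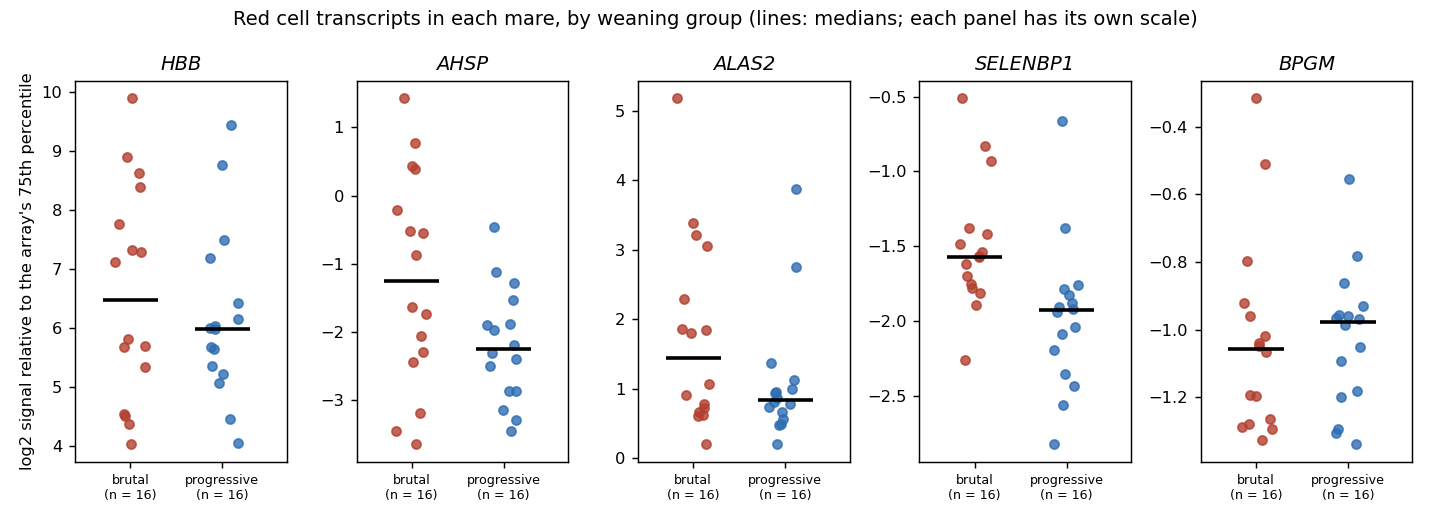
Level of each measured red cell gene in each mare (y axis, log2 signal relative to the array's 75th percentile, its own scale in every panel) by weaning group (x axis, 16 mares each); each point is a mare and each line a group median. HBB runs from 4.03 to 9.89, and the groups overlap for all 5 genes.

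HBB, AHSP and ALAS2 rose and fell together across mares. Pearson's r over the 32 mares was 0.89 for HBB and ALAS2 (rho = 0.809), 0.821 for AHSP and ALAS2 (rho = 0.757) and 0.746 for HBB and AHSP (rho = 0.652). Each r had a permutation p of 1e-05, the smallest that 100000 resamples can give, and 0.0002 after Benjamini-Hochberg adjustment over the 60 relations computed. Without the 2 mares farthest from the median of the first gene, r was 0.861, 0.78 and 0.682 in the same order. On the 4 slides taken alone r ran from 0.791 to 0.953 for HBB and ALAS2, from 0.777 to 0.929 for AHSP and ALAS2, and from 0.565 to 0.948 for HBB and AHSP. The same 6 mares held the 6 highest levels of HBB and of ALAS2, namely brutal 12, progressive 5, brutal 8, progressive 7, brutal 11 and brutal 14, and 5 of them were among the 6 highest for AHSP. Over all pairs of tested probes r was 0.88 to 0.91 for HBB and ALAS2 and 0.738 to 0.795 for HBB and AHSP. These pairs cover few separate sites, since 5 of the 6 HBB probes overlap, the 5 AHSP probes overlap and ALAS2 has 1 probe.

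The correlation of the beta chain with the alpha chain chaperone differed by weaning group. Between HBB and AHSP r was 0.953 in the 16 brutal mares and 0.341 in the 16 progressive mares (p = 0.196 by permutation within the latter). The difference between the 2 values had p = 0.00019 in a permutation of the group labels over deviations from the group means. Its adjusted p was 0.00057 over the 3 pairs compared. The test and its 3 pairs, out of 10 pairs of members, were chosen after the values were seen, and the adjustment does not cover that choice. Among progressive mares, progressive 7 had HBB at 8.77 with AHSP at -1.98, progressive 11 had 7.50 with -2.86, and progressive 16, the array with most outlier spots, had 7.19 with -3.44. Among brutal mares, brutal 9 had 7.33 with -0.86 and brutal 14 had 8.40 with 0.43. AHSP was also less spread in the progressive group, with an SD of 0.83 against 1.57. The permuted deviations were not scaled to a common SD, and the part of the unequal spread in the p was not tested. Without progressive 16, r in the progressive group was 0.462 and the difference had a permutation p of 0.00043. Without progressive 5 that r was 0.00759. For AHSP and ALAS2 r was 0.879 and 0.617 (adjusted p = 0.0546 in the permutation of labels), and for HBB and ALAS2 it was 0.946 and 0.816 (adjusted p = 0.0735).

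The correlation of BPGM with HBB and ALAS2 came from few mares. Over all 32 mares r was 0.468 with HBB and 0.477 with ALAS2, both with an adjusted permutation p of 0.0398. The rank correlations were 0.25 and 0.102, and without the 2 mares farthest from the median r fell to 0.201 and 0.0575, so these relations rest on those mares. The 3 highest BPGM levels belonged to brutal 12, brutal 8 and progressive 5, which also held the 3 highest levels of HBB. On slides 1 and 4 the correlation with HBB was -0.06 and -0.08, and on slides 2 and 3 it was 0.862 and 0.522.

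SELENBP1 had no correlation past the threshold with another member. Its r was -0.263 with HBB, -0.0137 with AHSP, -0.17 with ALAS2 and -0.295 with BPGM, and the smallest adjusted permutation p of the 4 was 0.273. None of its 6 highest mares was among the 6 highest for HBB, AHSP or ALAS2.

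**Figure D2:**
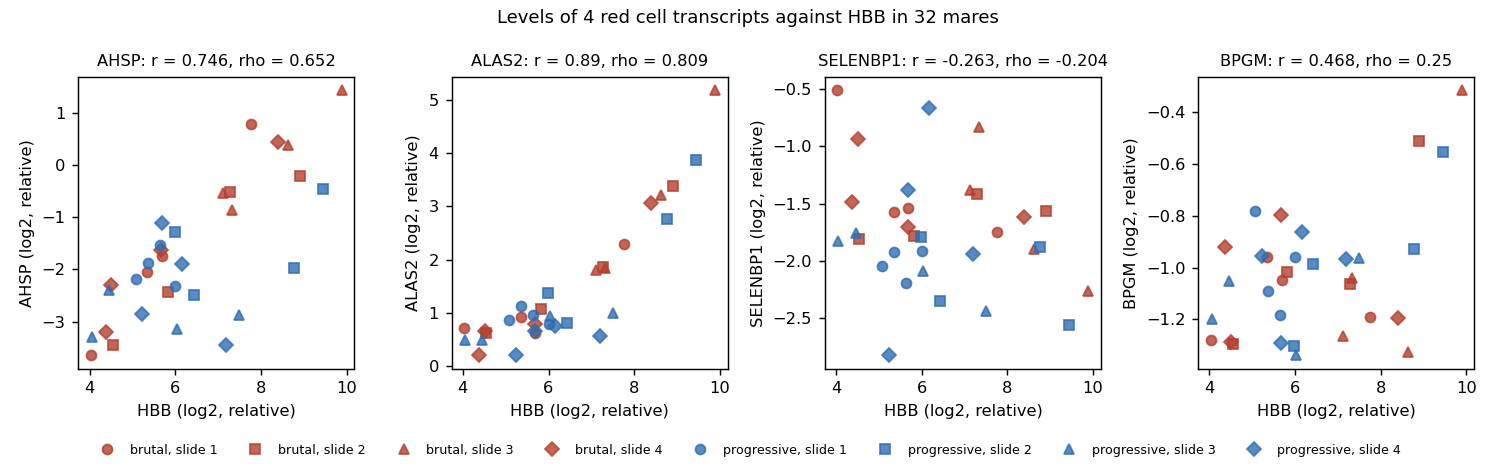
Levels of AHSP, ALAS2, SELENBP1 and BPGM (y axes, log2 relative to the array's 75th percentile) against HBB (x axis, same unit) in 32 mares, coloured by weaning group and shaped by slide. ALAS2 stays near its low end at low HBB and climbs to 5.18 in the mare with the highest HBB. AHSP rises with HBB closely in brutal mares (r = 0.953), while in progressive mares r is 0.341 (permutation p = 0.196). SELENBP1 does not rise.

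Genes that share the pattern were ranked over 9157 genes by their median r with the 5 measured members, each gene taken at its brightest tested probe. These are descriptions over 32 mares on shared arrays, with no test. All genes had a median of 0.0749, 61.3% were above 0, and 60 genes (0.655%) reached 0.5. HBQ1, a theta globin named here by the probe's description, had 0.832, and HBA2, an alpha globin, 0.771. HBA2 had r = 0.957 with HBB and 0.942 with ALAS2, and spanned 3.96 to 9.86. LOC100054161, the neighbour of HBB, has no symbol and was singled out after its values were seen. It ran from 1.16 to 7.97 and had r = 0.993 with HBB, and the lowest r between HBB's own probes was also 0.993. Whether its probe also binds HBB transcripts was not tested.

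Also among the 12 genes with the highest values were RNF11, a ubiquitin ligase adaptor, at 0.683, RHCE, a blood group protein of the red cell membrane, at 0.651, ATG4A, a protease of autophagy, at 0.617, and XPO7, a nuclear export receptor used in erythroid nuclear condensation, at 0.605. Other tested probes of these genes followed less closely. For XPO7 the second probe had r = 0.0569 with HBB and 0.2 with ALAS2, against 0.605 and 0.796 for the brighter one. The lowest r with HBB over the probes of a gene was 0.344 for ATG4A, 0.555 for RHCE and 0.587 for RNF11. TDRP, EMC7, TAS1R3, TFF2 and CST7, a cystatin of cytotoxic lymphocytes, had 0.581 to 0.552. RHCE, TDRP, TAS1R3 and TFF2 were well above background on 27, 22, 22 and 16 arrays, so part of their range is a bound. The 6 genes at the other end were MARF1 (-0.63), SUV420H1, SPEN, GPATCH8, SYNJ1 and CCDC174 (-0.57). ATG4A, TAS1R3, CST7 and MARF1 are named through their accessions.

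**Figure D3:**
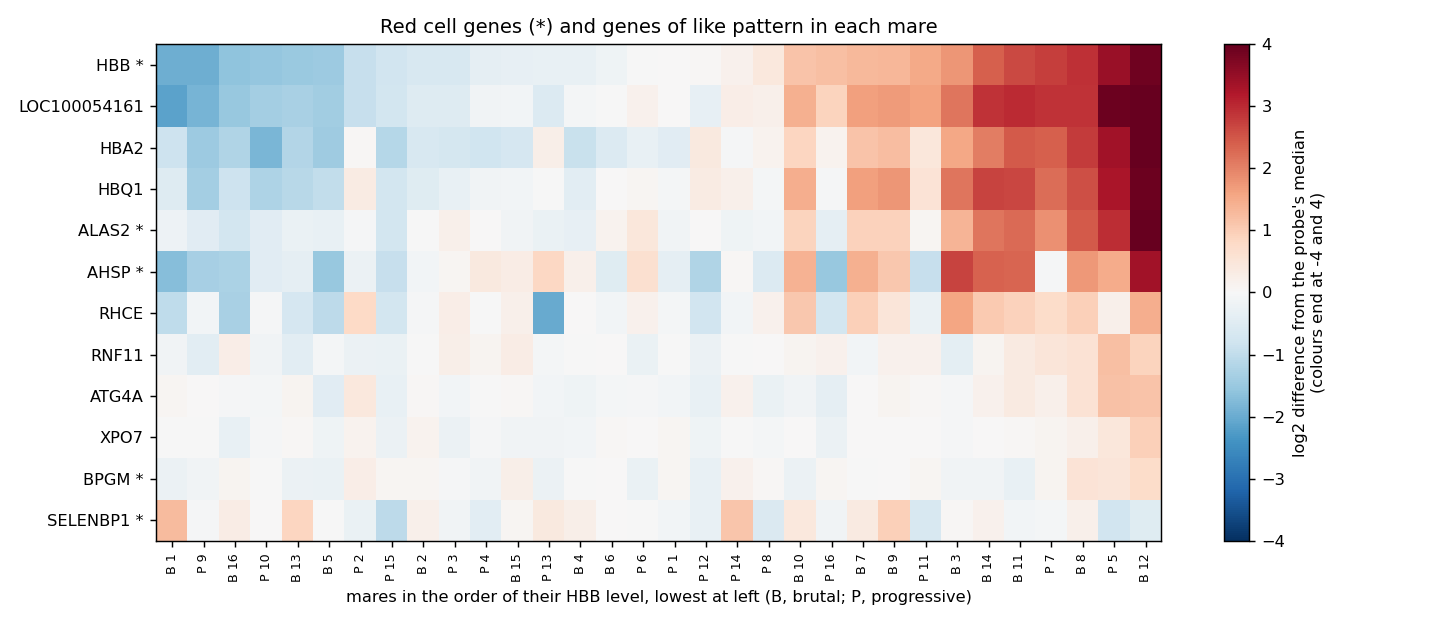
Difference of each mare's level from the probe's median over mares (colour, log2, ending at -4 and 4) for the 5 measured red cell genes (*) and 7 other genes (rows), in 32 mares ordered by HBB (columns; B, brutal; P, progressive). Globins and ALAS2 are high in the mares at the right, and BPGM and SELENBP1 change little along the order.

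Other globins were measured in part. Of 4 on the array, HBA2 and HBQ1 were tested, while the embryonic-type HBZ and HBE1 were well above background on 1 array each. Of the red cell membrane and skeleton list, 9 of 19 genes on the array were tested and 8 had a positive median r, with a list median of 0.262. ICAM4 and EPB41, a blood group adhesion protein and the skeletal protein 4.1, had 0.377 and 0.361, and ADD1, an adducin, was lowest with -0.13. ANK1, SPTB and RHAG, which encode ankyrin, the beta chain of spectrin and the Rh-associated glycoprotein, were well above background on at most 6, 1 and 3 arrays and were not tested.

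Haem synthesis genes were mixed. Of 14 genes on the array 13 were tested, 9 had a positive median r, and the list median was 0.175 beside 0.0749 over all genes. GLRX5, which serves iron-sulphur cluster assembly, had 0.462, UROD, the fifth enzyme of the pathway, 0.359 and ALAD, the second, 0.34. FECH, which inserts the iron, had 0.175, at the list's median, and ABCB6, a porphyrin transporter, was lowest at -0.40.

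Genes of reticulocyte maturation had a list median of 0.302, and 12 of the 15 tested were above 0, beside 61.3% of all genes. XPO7 had 0.605 at its brighter probe, PITHD1 0.5 and TENT5C, a poly(A) polymerase, 0.424. BNIP3L, the receptor that marks mitochondria for removal from reticulocytes, had 0.394 and r = 0.599 with ALAS2, and UBE2H was lowest with -0.24. Red cell enzymes had a list median of 0.202, with 7 of 9 positive, HAGH (0.463), GPX1 (0.387), BLVRB (0.332) and GPI (0.272) at the top and HK1 (-0.18) at the bottom. CA1, CA2 and PKLR were not tested, with at most 7, 3 and 0 arrays well above background. Some marker lists of other blood cells had medians in the same range. These were 0.242 for NK cells (6 of 7 positive), 0.22 for platelets (8 of 8), 0.208 for dividing cells (9 of 9) and 0.182 for T cells (11 of 11). Neutrophils had 0.068, monocytes 0.0301 and B cells -0.0502. Values in this range are therefore not particular to the red cell lists.

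Regulators of early red cell formation were measured only in part. Of the erythroid transcription factors GFI1B, NFE2, LMO2 and BCL11A were tested, with a list median of 0.0494, close to the 0.0749 of all genes. TAL1 and HEMGN were well above background on 1 and 9 arrays. Of the iron uptake and erythropoietin list 5 of 8 genes were tested, 1 with a positive median r (STEAP3, an endosomal iron reductase, 0.07), and the list median was -0.26. SLC11A2, JAK2, STAT5A and STAT5B had -0.26, -0.26, -0.33 and -0.48. TFRC and EPOR, the transferrin and erythropoietin receptors of red cell precursors, were well above background on 0 of 32 arrays. TFR2 reached 3 arrays and, like TFRC and EPOR, was not tested, so the list median leaves these receptors out.

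**Figure D4:**
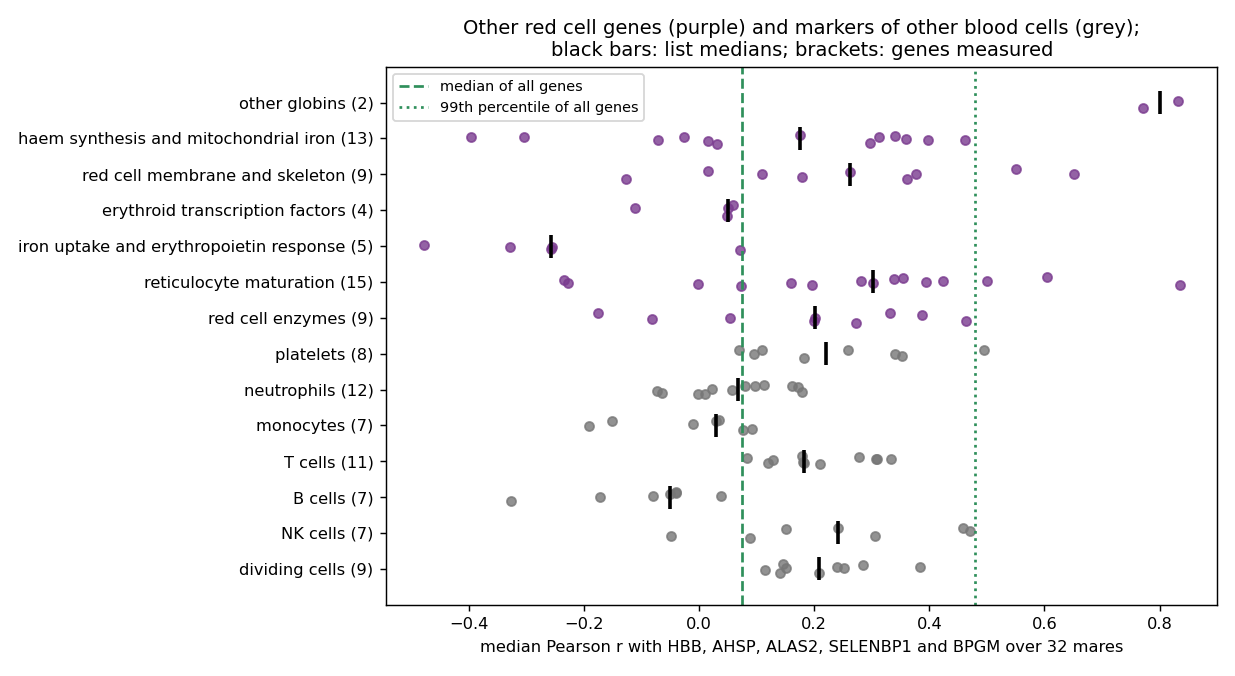
Median Pearson r of each measured gene with the 5 measured red cell genes over 32 mares (x axis), by list (rows, number of genes in brackets); black bars are list medians, the dashed line is the median of all genes (0.0749) and the dotted line their 99th percentile (0.479). The 2 other globins lie at 0.771 and 0.832, and iron uptake and erythropoietin response has a list median of -0.26.

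Markers of other blood cells moved with some members. The mean level of 7 NK cell markers correlated with HBB (r = 0.459, adjusted permutation p = 0.0418), AHSP (r = 0.516, adjusted p = 0.0222) and ALAS2 (r = 0.577, adjusted p = 0.0111). Without the 2 mares farthest from the median these were 0.305, 0.396 and 0.432, with unadjusted permutation p of 0.102, 0.0299 and 0.0173. No adjusted p was computed for these values. On single slides r ran from -0.0409 to 0.938 with HBB, from 0.233 to 0.816 with AHSP and from 0.328 to 0.926 with ALAS2. The rank correlations were 0.394, 0.537 and 0.5, with adjusted permutation p of 0.178, 0.0243 and 0.0411. The markers were unequal, with r to ALAS2 of 0.62 for NKG7 and 0.573 for GZMB, both of cytotoxic granules, and -0.09 for NCR1, an activating NK receptor. All 7 markers were well above background on every array, and their mean ran from 0.85 to 1.83 in the brutal and from 0.49 to 1.66 in the progressive group. The mean of 8 platelet markers correlated with SELENBP1 (r = 0.525, adjusted permutation p = 0.0222, single slides from 0.43 to 0.86, 0.543 without the 2 farthest mares). It ran from -2.27 to -0.54 in the brutal and from -2.85 to -0.98 in the progressive group, and 6 of the 8 markers were well above background on all arrays. VWF had r = 0.553 with SELENBP1, the highest of the 8, and PF4 had 0.225, the lowest. With AHSP and ALAS2 PF4 had r = 0.731 and 0.637. Within groups the platelet mean had r = 0.549 with SELENBP1 in brutal and 0.297 in progressive mares. With ALAS2 and AHSP the platelet mean had r = 0.358 (adjusted permutation p = 0.162) and 0.33 (adjusted p = 0.208). Without the 2 farthest mares these were 0.569 and 0.43. The share of the other cells in the members' values was not tested. No other relation of a member with the platelet, NK cell, neutrophil, monocyte, T cell, B cell or dividing cell markers passed the adjusted threshold.

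Array brightness also moved with 2 members. AHSP and ALAS2 fell as the array's 75th percentile signal rose (r = -0.504, adjusted permutation p = 0.0293, and r = -0.476, adjusted p = 0.0392), and for HBB r was -0.29 (adjusted p = 0.273). That percentile is subtracted from each level, so both sides share it, and its part in the values was not tested. The rank correlation with it was -0.514 for AHSP (adjusted permutation p = 0.0395) and -0.351 for ALAS2 (adjusted p = 0.209). Without the 2 mares farthest from the median r was -0.445 for AHSP and -0.366 for ALAS2. With the share of spots well above background, HBB, AHSP and ALAS2 had r of -0.367, -0.126 and -0.24. The adjusted permutation p values were 0.148, 0.614 and 0.329.

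No red cell gene differed between the weaning groups after adjustment. limma called 0 of 26368 probes at an adjusted p under 0.05, so percent called was 0, and 0 of the 16 member probes. At an unadjusted p under 0.05 it counted 726 probes (2.75%), and with trend and robust options 714 probes with 0 called. The members' adjusted p was at least 0.996. Differences are progressive minus brutal on the log2 scale with limma's standard error. Among all tested probes 55.7% were lower in the progressive group.

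AHSP was -0.97 (SE 0.423, 95% interval -1.83 to -0.11, unadjusted p = 0.0277), and its other 4 probes were between -1.07 and -1.12. Slide 3 carried most of that difference: the mean was -3.02 there, -0.31, 0.09 and -0.66 on slides 1, 2 and 4, and -0.29 (unadjusted p = 0.528) without slide 3. SELENBP1 was -0.47 (SE 0.159, interval -0.79 to -0.14, unadjusted p = 0.00594) and lower in the progressive group on all 4 slides, by values from -0.67 to -0.27. Its other probe gave -0.21 (SE 0.131, unadjusted p = 0.122). The platelet markers that correlated with SELENBP1 had values below 0 in 8 of 8 genes, with a median difference of -0.39 beside -0.02 over all genes. The neutrophil markers did so in 12 of 12 genes (median -0.31) and the NK cell markers in 6 of 7 (median -0.25). Of all genes 58.2% had a value below 0. In the other lists 5 of 11 T cell, 4 of 7 monocyte, 2 of 7 B cell and 0 of 9 dividing cell markers did so. None of these markers passed the adjusted threshold of limma, and their part in the members' differences was not tested.

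ALAS2 was -0.66 (SE 0.394, interval -1.46 to 0.14, unadjusted p = 0.102), and -0.12 without slide 3. HBB was -0.39 (SE 0.555, interval -1.52 to 0.74, unadjusted p = 0.483), and its slides did not share a direction, with -0.19, 1.02, -2.73 and 0.33 on slides 1 to 4. Without slide 3 the HBB difference was 0.39. BPGM was 0.0057 (SE 0.0894, interval -0.18 to 0.19), and its other probe -0.12 (SE 0.0718).

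**Figure D5:**
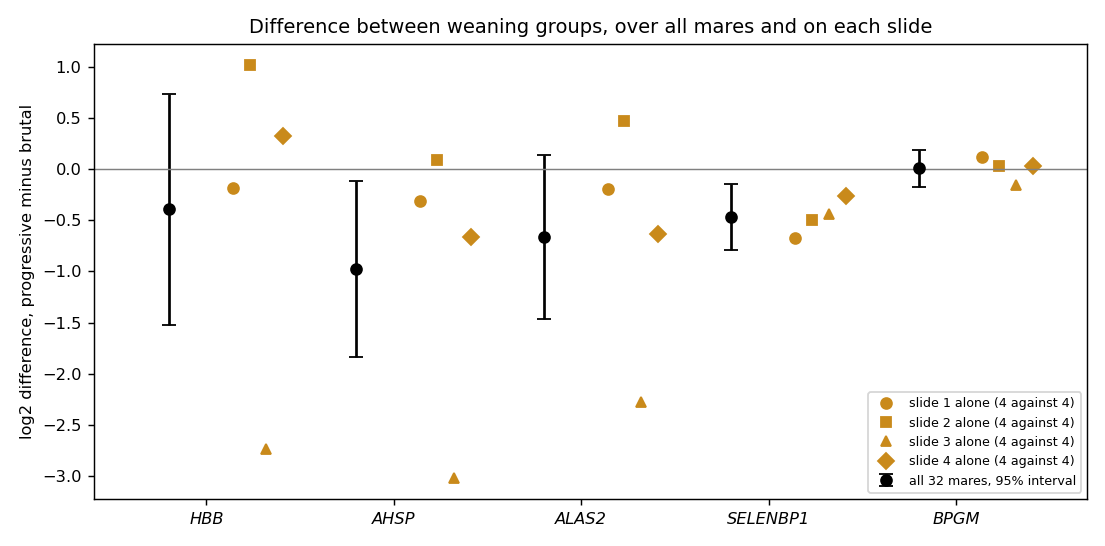
Difference between weaning groups (y axis, log2, progressive minus brutal) for the 5 measured red cell genes (x axis), over all 32 mares with limma's 95% interval (black) and on each slide alone with 4 mares a group (orange). Slide 3 lies at -2.73 for HBB and -3.02 for AHSP, and SELENBP1 lies below 0 on each slide.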

How the data were processed

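Intensity values per spot come from the deposited scanner output, which per the file headers was extracted with Agilent Feature Extraction 10.10.1.1, background subtracted and corrected for spatial trends; probe positions are on EquCab1, per the same headers. The deposited series table holds log2 values of the same arrays, normalised by a method not given in the sources used here, and served as an alternative. From the processed signal, outlier spots and controls were left out, log2 was taken, the 75th percentile of each array was subtracted and spots of a probe were averaged. Of 43987 probes 26368 were tested, for 9162 genes named by file symbol, by accession through the RefSeq gene table of assembly TB-T2T (2989 probes) or, for 5 probes, by description.

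Groups were compared with limma 3.58.1 in R 4.3.3 (lmFit, eBayes, two-sided, Benjamini-Hochberg over all tested probes). Correlations had two-sided permutation tests with 100000 resamples, exact over the 40320 orders on single slides, run with scipy 1.17.1, pandas 2.3.3 and numpy 2.4.6 (Python 3.11.15), and plots used matplotlib. The methods were tested on simulated data. SLC4A1 and EPB42 had no tested probe, so 10 pairs of members were correlated in place of the 21 planned. The gene of a list is its brightest tested probe; the named genes are the members, the 12 genes with the highest and the 6 with the lowest median r, and up to 4 top members and the lowest of each list. LOC100054161, FECH, BNIP3L, VWF, PF4, NKG7, GZMB and NCR1 were named after their values were seen. Some genes that this rule takes are not reported here. Members and lists were chosen with earlier results of these data known. Alternatives were normexp, quantile and other percentile scaling, the series table, slide and row terms, slides left out or alone, other filters, mean of probes, and no array with most outliers. The number of arrays limits the precision, and p-values measure the spread between mares. With 1 sample and 1 array per mare, that spread includes differences between arrays and sample preparations.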

Additional observations from a re-analysis of the deposited data

Results flagged for a closer look

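The correlation of HBB and AHSP differed between the weaning groups, r = 0.953 in brutal and 0.341 in progressive mares. The test of this difference and the pairs it compared were chosen after the values were seen, and the repeats given here reuse the same mares. The permutation p of the difference lay between 6e-05 and 0.00015 under 4 other scalings and between 0.00014 and 0.00042 over the 5 overlapping AHSP probes. It was at most 0.0007 when each mare was left out in turn, and at most 0.004 when each slide was. In the progressive group r fell to -0.139 without slide 2 and rose to 0.509 without slide 4.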

How the results depend on the processing

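No paired analysis was possible because the replicate numbers were given in accession order and the labels pair no brutal with a progressive mare. The count of called probes was 0 under the 14 alternatives planned for it, and on single slides it was 0 on slides 1 to 3 and 1 on slide 4, which was not planned for the count, and the 60 alternative SDs between mares ran from 1.51 to 1.72 for HBB, 0.969 to 1.40 for AHSP, 1.02 to 1.33 for ALAS2, 0.368 to 0.55 for SELENBP1 and 0.202 to 0.272 for BPGM. Of 80 alternative group differences 69 kept their direction, and of 200 alternative correlations 161 kept direction and side of an unadjusted permutation p of 0.05, 14 no longer passed it and 6 newly did. These 6 were HBB and SELENBP1 over group deviations (-0.364) and in the brutal group (-0.5), ALAS2 and SELENBP1 over group deviations (-0.352), AHSP and BPGM over the mean of probes (0.44) and without slide 4 (0.416), and SELENBP1 and BPGM with the percentile over detected probes (-0.36). HBB and AHSP no longer passed in the progressive group alone (0.341) or on slide 4 alone (0.565), and HBB and ALAS2 on slide 1 alone (0.81, exact p = 0.0504). Differences turned as follows. HBB was 1.02 on slide 2, 0.327 on slide 4 and 0.386 without slide 3, and AHSP was 0.0926 and ALAS2 0.468 on slide 2. BPGM, close to 0 throughout, was -0.00195 with normexp, -0.0309, -0.00187 and -0.00261 without slides 1, 2 and 4, -0.152 on slide 3 alone and -0.0555 over the mean of its probes. Correlations turned for HBB and BPGM on slides 1 (-0.0593) and 4 (-0.075), for AHSP and BPGM on slides 1 (-0.108) and 4 (-0.429), for ALAS2 and BPGM on slides 1 (-0.299) and 4 (-0.348), and for ALAS2 and SELENBP1 on slide 4 (0.123) and without the 2 farthest mares (0.077). AHSP and SELENBP1, near 0, gave 0.0605 with normexp, 0.0176 with quantile, 0.000725 in the series table, 0.14 by rank, 0.0853 without the 2 farthest mares, 0.0229 over slide deviations, 0.147 in the progressive group, 0.12 without slide 1, and 0.131, 0.135 and 0.245 on slides 2, 3 and 4. The cause was not tested, but single slides hold only 8 mares. Dim signals limit SLC4A1 and EPB42.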
